A study of Mus musculus with 400 samples.

Results

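Mrgpra3 cells and Sst/Nppb cells are 2 classes of small-diameter sensory neurons of the dorsal root ganglion (DRG), the ganglion that holds the cell bodies of body-surface sensory neurons. The classes were defined by a gate on the transcripts themselves. A kept cell entered the Mrgpra3 class with at least 50 CPM (counts scaled to the usual common total per cell) of Mrgpra3 and under 100 CPM of both Sst and Nppb. It entered the Sst/Nppb class with at least 100 CPM of Sst or Nppb and under 50 CPM of Mrgpra3. Cells with 200 CPM or more of Mrgprd, the marker of a neighbouring class of non-peptidergic neurons, were left out of both. The Mrgpra3 class held 44 and the Sst/Nppb class 45 of 371 kept cells, of 394 sequenced cells in the tables.

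All cells came from untreated (naive) mice of the strain Nav1.8-Cre.Ai14, genotype Nav1.8-Cre with R26CAG-floxStop-tdTomato, 6 to 12 weeks old, whose cervical C1 to C8 ganglia were dissociated with enzymes. Cre expressed from the gene of the sodium channel Nav1.8, Scn10a, switches on the red protein tdTomato, and tdTomato-positive cells were sorted one by one. Neurons that never expressed Scn10a, and cells lost in dissociation, are outside the sample. The 6 mice are called Blue and Red (run 1), Control (run 2), Control1 and Control2 (run 3) and Control6 (run 4), and none of them was treated, so both classes come from the same animals. Blue held 18 Mrgpra3 and 18 Sst/Nppb cells, and Red held 18 Mrgpra3 and 15 Sst/Nppb cells. Control and Control1 each held 2 Mrgpra3 and 4 Sst/Nppb cells, and Control2 and Control6 each held 2 of both classes. The mouse, not the cell, is the replicate throughout.

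Both classes are known in mice as pruriceptors, neurons whose activation evokes itch. Mrgpra3 encodes a Mas-related G protein-coupled receptor that responds to chloroquine, and neurons with it carry chloroquine-evoked itch from the skin. Nppb encodes natriuretic polypeptide b, a transmitter that carries itch to the spinal cord, and Sst encodes the inhibitory peptide somatostatin. Sst/Nppb neurons are known for the receptor of interleukin 31, a cytokine of T cells that drives itch in atopic dermatitis. Receptors for serotonin, leukotrienes, sphingolipids and histamine couple other skin mediators to the same fibres.

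The 250 bases before the start of Sst and Nppb, the gate genes found together in the Sst/Nppb class, and of Calca, the tested peptide gene that differed most in run 1, are shown as the promoter-side sequence of genes that separate the classes. They are RefSeq sequences on GRCm38.p6, read along the gene's strand. Capitals mark the cyclic AMP response element TGACGTCA, which is its own reverse complement.
Calca, chr7:114636358-114636607, minus strand: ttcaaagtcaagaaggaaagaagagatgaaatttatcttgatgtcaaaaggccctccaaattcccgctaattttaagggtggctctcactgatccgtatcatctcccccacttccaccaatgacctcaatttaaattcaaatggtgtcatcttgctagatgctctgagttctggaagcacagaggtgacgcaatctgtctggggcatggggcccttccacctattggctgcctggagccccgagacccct
Sst, chr16:23890845-23891094, minus strand: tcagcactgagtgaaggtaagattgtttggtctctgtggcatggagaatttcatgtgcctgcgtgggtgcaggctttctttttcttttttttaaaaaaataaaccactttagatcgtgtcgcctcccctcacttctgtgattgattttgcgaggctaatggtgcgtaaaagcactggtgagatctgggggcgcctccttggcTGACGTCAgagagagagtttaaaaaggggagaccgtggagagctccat
Nppb, chr4:147985650-147985899, plus strand: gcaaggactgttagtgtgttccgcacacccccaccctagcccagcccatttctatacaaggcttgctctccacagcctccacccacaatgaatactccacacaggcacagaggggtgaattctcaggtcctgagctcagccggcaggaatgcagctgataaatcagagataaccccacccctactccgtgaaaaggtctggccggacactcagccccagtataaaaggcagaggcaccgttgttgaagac
The element stood once in the Sst window, from 48 to 41 bases before the start, and in neither of the other windows. It occurred in 508 of 32851 windows of the same length (1.55%). The match is a description of letters, and no window of Mrgpra3 was used here.

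Few cells lay near the gates. In its class, Mrgpra3 ranged over cells with a lowest value of 60.7, a median of 342 and a highest value of 1058 CPM. The next cell above the lowest held 107.8 CPM, and the highest cell under the gate held 43 CPM. The larger of Sst and Nppb was at least 393 CPM in every Sst/Nppb cell and at most 50.6 CPM in any kept cell under the gate. Sst had a median of 973 and Nppb of 499 CPM in the Sst/Nppb class. Of the 45 cells, 42 passed with both genes and 3 with Nppb alone, and none passed with Sst alone. All 44 Mrgpra3 cells were at 0 for Sst and for Nppb, and 44 of the 45 Sst/Nppb cells were at 0 for Mrgpra3. These values chose the cells and carry no test. Mrgpra3 shares sequence with its paralogs, and 26.8% of its low values were fractions of a count, so its level is uncertain, whereas no low value of Sst or Nppb was a fraction.

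**Figure D1:**
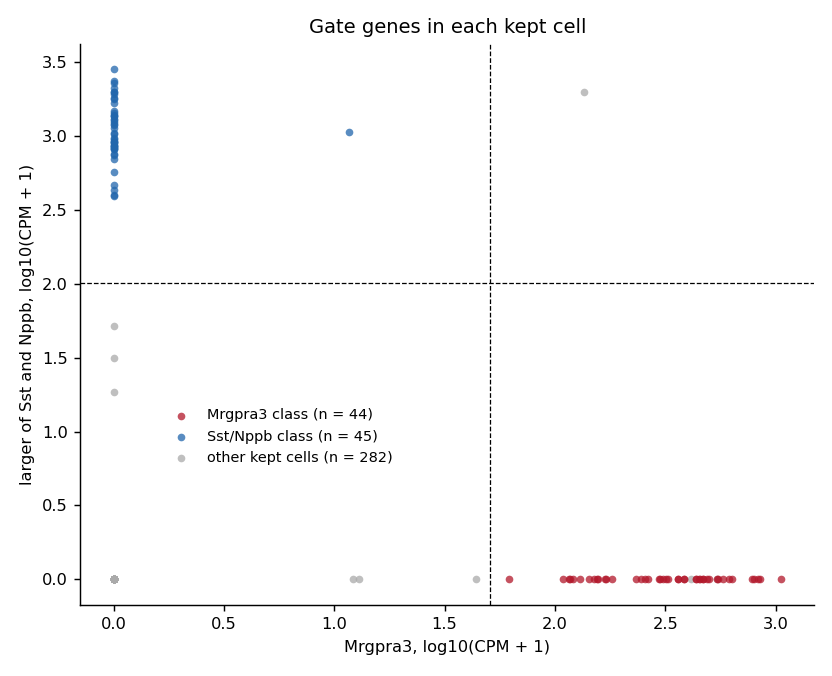
Each point is 1 of the 371 kept cells, with Mrgpra3 on the x axis and the larger of Sst and Nppb on the y axis, both as log10(CPM + 1), and dashed lines at the gates of 50 and 100 CPM. The 44 Mrgpra3 cells lie at 0 on the y axis, 44 of the 45 Sst/Nppb cells lie at 0 on the x axis, and 1 grey cell lies past both gates.

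A single kept cell, from mouse Control2, passed both gates and belongs to neither class. It held 135 CPM of Mrgpra3 beside 1979 CPM of Sst and 720 CPM of Nppb, from 11160 counts and 4011 genes. Genes of the Sst/Nppb class were present in it, with Il31ra at 540, Osmr at 1259 and Jak1 at 3238 CPM, whereas Calca, Gap43 and Gfra1, abundant in Mrgpra3 cells, were at 0. For these genes it stood on the Sst/Nppb side. Another 2 cells past the Mrgpra3 gate were left out for Mrgprd.

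Each class was a minor share of the kept cells in every mouse. Mrgpra3 cells were 9.93% ± 3.92 of kept cells per mouse and Sst/Nppb cells 12.0% ± 5.10 (SD, n = 6 mice each). Per mouse the Mrgpra3 share lay between 4% in Control (Clopper-Pearson 95% interval 0.488 to 13.7%) and 14.3% in Blue (8.69 to 21.6%). The Sst/Nppb share lay between 8% in Control and Control6 and 21.1% in Control1 (6.05 to 45.6%). These intervals overlap and cover counting error only.

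Mrgpra3 cells held more recovered counts than Sst/Nppb cells. Recovered counts per cell had a median of 39299.5 (3459 to 113903) in Mrgpra3 cells and of 16986 (1412 to 43485) in Sst/Nppb cells, and detected genes a median of 7193 in Mrgpra3 and 5247 in Sst/Nppb cells. Molecular identifiers were used, per the labels' protocol, so a count approximates a molecule, and cell size and capture cannot be told apart from it. Summed markers of general neuronal identity overlapped between the classes, with between 10449 and 13661 CPM per mouse in Mrgpra3 cells and between 8657 and 12708 CPM in Sst/Nppb cells. The 13 satellite glial markers summed to 505 to 3763 CPM in Mrgpra3 cells and to 160 to 1978 CPM in Sst/Nppb cells, with 12 of the 13 detected in each class. The 9 macrophage markers summed to at most 15.8 CPM in Mrgpra3 cells and 4.34 CPM in Sst/Nppb cells. Erythroid markers reached 620 CPM in the Mrgpra3 cells of Control6 and at most 6.98 CPM in every other mouse and class.

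Across all genes, 1776 of 8664 tested (20.5%) differed between Mrgpra3 and Sst/Nppb cells in run 1, at a limma adjusted p under 0.05. Of these, 1038 (12%) were higher and 738 (8.52%) lower in Mrgpra3 cells, and the median log2 difference of all tested genes was 0.02. Averaging the cells of a class on the log scale instead put 83% of the calls on the higher side, against 58.4% here, and moved the median to 0.40. The test compared mean CPM per mouse and class on the log2(CPM + 5) scale, with mouse as a block, and only Blue and Red held the 3 cells per class it asks for. Its p-values therefore rest on 2 mice and on a spread borrowed from all genes. Without Blue or without Red, 1 Mrgpra3 average with at least 3 cells was left, so these calls cannot be checked by leaving out a mouse. With all 6 mice, 515 of 8774 genes (5.87%) differed, 284 (3.24%) higher and 231 (2.63%) lower, and 498 of the 515 were also among the 1776. Averages of the 6 mice did not overlap at all for 381 genes (4.34%), with 206 (2.35%) above and 175 (1.99%) below. Differences below are log2(CPM + 5) values, Mrgpra3 minus Sst/Nppb cells, in run 1 unless 6 mice are named, with their SE. The pseudocount of 5 understates the change of low genes.

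The 4 mice of runs 2 to 4 took no part in the run 1 test and can be set beside it. Of the 1776 genes, 1682 were also tested there, and 1499 of these (89.1%) had the same direction, against 59.9% of the genes not called in run 1. In this fit 173 of 8656 genes (2%) were called, 98 (1.13%) higher and 75 (0.866%) lower. It called 165 of the run 1 genes in the same direction and 1 in the other. That gene, Rn4.5s, a small structural RNA singled out after its values were seen, differed by -1.05 in run 1 and by 1.74 in the 4 mice. Each of the 4 mice showed the run 1 direction for 615 of the 1776 genes (34.6%), and for 8.3% of the genes not called.

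**Figure D2:**
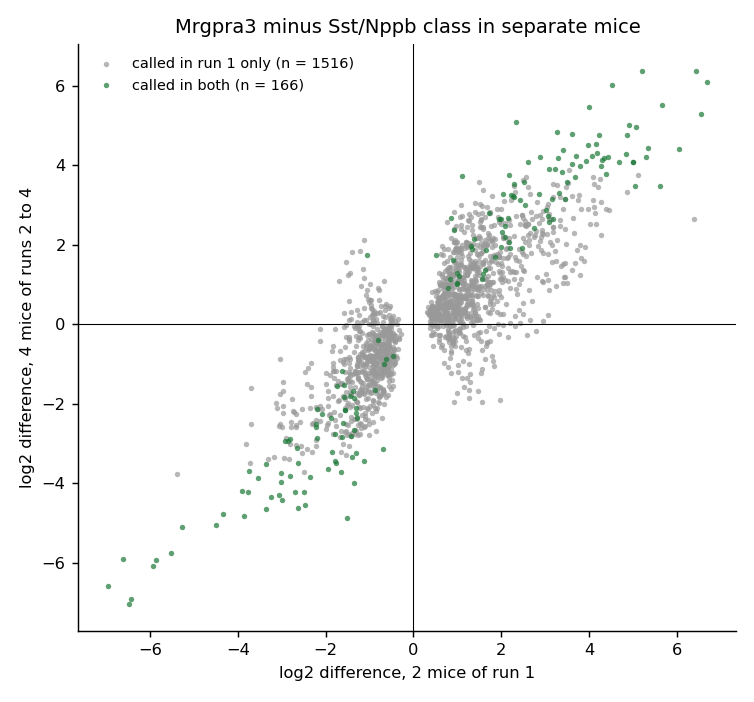
Each point is 1 of the 1682 genes called in run 1 and tested in the other mice, with the log2 difference (Mrgpra3 minus Sst/Nppb cells) of the 2 mice of run 1 on the x axis and of the 4 mice of runs 2 to 4 on the y axis. Points at the lower left and upper right have 1 direction in both sets of mice (1499 genes), and green marks the 166 genes called in both.

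Among receptors for itch mediators, most of the Mas-related family was too low to be tested or set the gates. Of the 17 on the list 3 were tested, and 1, Mrgpre, an orphan member, was higher in Mrgpra3 cells in run 1 (1.71 ± 0.32, adjusted p = 7.18e-05), though not over 6 mice (adjusted p = 0.252). The paralogs Mrgpra2a and Mrgpra2b had medians over mice of 38.6 and 43.5 CPM in Mrgpra3 cells, against 19.8 and 23.9 CPM in Sst/Nppb cells. Fractions of a count made up 62.7% and 61.5% of their low values, so they are uncertain. Neither passed limma's test in run 1, whereas edgeR on recovered counts, and limma on averages taken on the log scale, called all 3 tested members higher. Of all 8664 genes tested, limma's run 1 test called 12% higher. From the same 8664, edgeR called 1107 higher and the log-scale averages 2018. Mrgprx1, which in mice is a receptor for the peptide BAM8-22, had a value in 10 of 44 Mrgpra3 cells and in 0 of 45 Sst/Nppb cells, and was too low to be tested.

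Among 17 tested receptors for amines, proteases, lipids and peptides, 7 were lower and 3 higher in Mrgpra3 cells. The shares among all tested genes were 8.52% lower and 12% higher. The 17 receptors had a median of -0.48, which turned to 0.08 with averages taken on the log scale. Htr1f, a serotonin receptor coupled to inhibitory G proteins, had no count in any of the 44 Mrgpra3 cells. In Sst/Nppb cells it had a lowest, median and highest mouse average of 190, 263 and 304 CPM, and 38 of 45 cells carried it. Pooled over cells, it was at least 150-fold lower in Mrgpra3 cells, taking 3 counts over the class as the floor (-5.52 ± 0.36, adjusted p = 7.17e-16). Htr1a, a related serotonin receptor, was likewise at 0 in all Mrgpra3 cells. Its mouse averages in Sst/Nppb cells ran to a lowest, median and highest value of 61.4, 148 and 268 CPM, and it was present in 36 of 45 cells.

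Cysltr2, a receptor for cysteinyl leukotrienes, had 0, 0.24 and 15.8 CPM (lowest, median and highest mouse) in Mrgpra3 cells, against 114.4, 188 and 220.0 CPM in Sst/Nppb cells. The classes did not overlap, and 5 of 44 Mrgpra3 cells against 41 of 45 Sst/Nppb cells carried it (-4.35 ± 0.38, adjusted p = 4.07e-12). S1pr1, a receptor for sphingosine 1-phosphate, had 0, 7.77 and 156 CPM in Mrgpra3 cells, against 75.3, 137 and 319 CPM in Sst/Nppb cells (-3.82 ± 0.31, adjusted p = 4.64e-13). Its groups overlapped through mouse Control, in which the Mrgpra3 average of 156 CPM stood above the Sst/Nppb average of 113.2 CPM. Lpar1 and S1pr3, lipid receptors named after their values were seen, were lower in run 1 (-2.42 ± 0.35 and -1.42 ± 0.32) and missed the threshold over 6 mice.

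On the other side, Ptgdr, the DP1 receptor for prostaglandin D2 from mast cells, had 24.5, 87.3 and 104.2 CPM in Mrgpra3 cells. In Sst/Nppb cells it was at 0 in 5 mice and at 27.8 CPM in Control2. It was higher in Mrgpra3 cells in 6 of 6 mice (4.38 ± 0.42, adjusted p = 4.13e-11), with 22.1% of its exon length shared with another gene, and 41 of 44 Mrgpra3 cells against 1 of 45 Sst/Nppb cells carried it. Htr3a, the serotonin-gated channel, and P2ry2, a nucleotide receptor, both named after their values were seen, had a value in 20 and 30 of 44 Mrgpra3 cells and in none of the 45 Sst/Nppb cells. P2ry2 missed the threshold over 6 mice (adjusted p = 0.0909). Hrh1, the histamine H1 receptor, had 0, 66.7 and 87.02 CPM in Mrgpra3 cells and 24.1, 37.1 and 88.6 CPM in Sst/Nppb cells. Its difference of 0.64 ± 0.28 did not pass (adjusted p = 0.101), the mice overlapped, and 33 of 44 Mrgpra3 cells against 25 of 45 Sst/Nppb cells carried it. In the 282 other kept cells 13 had a value for it. F2rl1, the protease receptor PAR2, was lower in run 1 (-1.70 ± 0.49, adjusted p = 0.00946) but 0.16 ± 0.77 over 6 mice (adjusted p = 0.94), with a value in 5 of 44 Mrgpra3 cells and 9 of 45 Sst/Nppb cells.

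**Figure D3:**
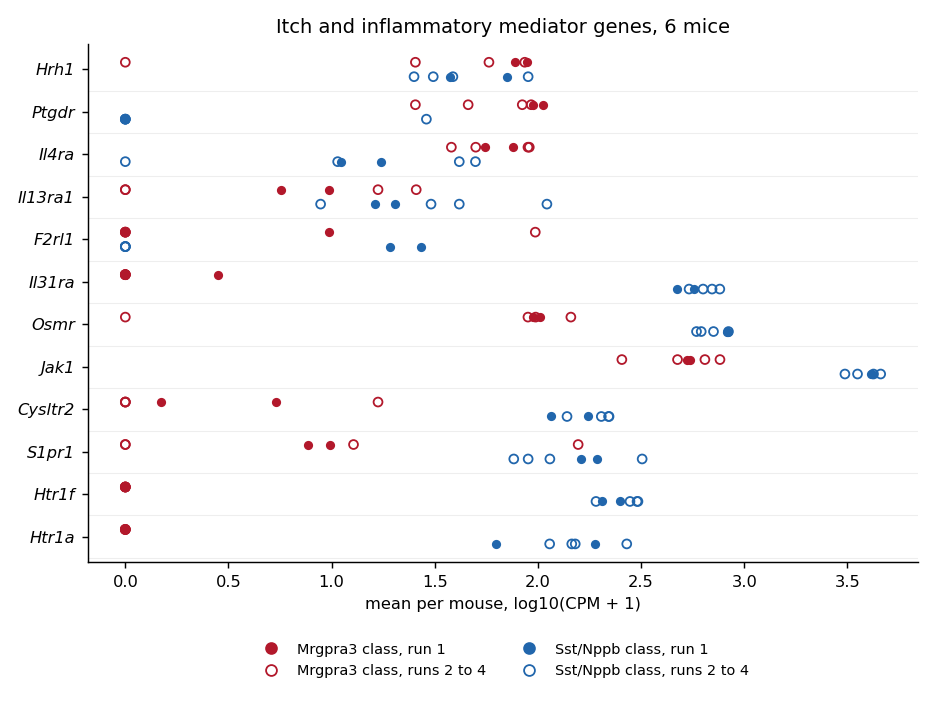
Mean CPM per mouse, as log10(CPM + 1), of 12 mediator genes in Mrgpra3 cells (red, upper of each pair) and Sst/Nppb cells (blue, lower), with filled points for the 2 mice of run 1 and open points for the 4 mice of runs 2 to 4. Il31ra, Osmr, Jak1, Cysltr2, Htr1f and Htr1a separate the classes in all 6 mice, whereas Hrh1, Il4ra, Il13ra1 and F2rl1 overlap.

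Of 22 tested cytokine receptor and Jak-Stat genes, 6 were lower and 4 higher in Mrgpra3 cells. Among all tested genes 8.52% were lower and 12% higher. The median of the 22 was 0.08 and turned to -0.32 over 6 mice. Il31ra, the specific subunit of the interleukin 31 receptor, was at 0 in 5 mice and at 1.81 CPM in Blue in the Mrgpra3 class. In Sst/Nppb cells its lowest, median and highest mouse averages were 472, 599 and 760.0 CPM. It was carried by 2 of 44 Mrgpra3 cells and 44 of 45 Sst/Nppb cells. On GRCm38 the gene lies at chr13:112519898-112594360 on the minus strand. Pooled counts were 536-fold lower in Mrgpra3 cells (counting interval 148 to 4440.3), and the fitted difference was -6.49 ± 0.29 (adjusted p = 4.6e-21). Osmr (chr15:6813577-6874969, minus strand), the shared subunit of the interleukin 31 and oncostatin M receptors, was not absent from Mrgpra3 cells. It had 0, 95.2 and 143 CPM there and 586, 766 and 837 CPM in Sst/Nppb cells (-3.02 ± 0.16, adjusted p = 9.31e-19). Of the Mrgpra3 cells, 40 of 44 carried Osmr, with a median of 84.1 CPM per cell, against 809 CPM per Sst/Nppb cell.

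Jak1 (chr4:101152367-101265282, minus strand), the kinase that signals below these receptors, had 254, 536 and 761 CPM in Mrgpra3 cells and 3073, 4134 and 4581 CPM in Sst/Nppb cells. The groups did not overlap (-2.94 ± 0.11, adjusted p = 1.57e-23), and the 6-mouse and 4-mouse fits gave the same -2.94. The mean over the other kept cells was 207 CPM, so the Sst/Nppb average stood above the Mrgpra3 class and the other cells. Socs2, a feedback inhibitor of cytokine signalling, had 36.7, 129 and 209 CPM in Mrgpra3 cells and 479, 521 and 726 CPM in Sst/Nppb cells (-1.59 ± 0.16, adjusted p = 9.88e-11). Lifr, the leukaemia inhibitory factor receptor, was lower too, at 627, 702 and 907 CPM in Mrgpra3 cells and 728, 1170.2 and 1748 CPM in Sst/Nppb cells (-0.87 ± 0.12). Il6st, or gp130, which completes the oncostatin M and leukaemia inhibitory factor receptors, went the other way (1.301 ± 0.23, adjusted p = 2.42e-05) and was also called over 6 mice (adjusted p = 0.0319). Its mouse averages had a median of 193 CPM in Mrgpra3 cells and 64.6 CPM in Sst/Nppb cells. Socs2, Lifr and Il6st were named after their values were seen.

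Subunits of the interleukin 4 and 13 receptor did not pass over 6 mice. Il4ra was higher in Mrgpra3 cells in run 1 (1.94 ± 0.35, adjusted p = 3.88e-05), with 54.6 and 74.6 CPM in Mrgpra3 cells of Blue and Red, against 10.1 and 16.3 CPM in Sst/Nppb cells, and it missed the threshold over 6 mice (1.78 ± 0.61, adjusted p = 0.126). Il13ra1 did not pass (-0.94 ± 0.48, adjusted p = 0.176). Together, Il31ra, Osmr and Jak1 were all detected in 2 of 44 Mrgpra3 cells, in 43 of 45 Sst/Nppb cells and in 7 of 282 other kept cells. After each cell was thinned to 10000 counts, Il31ra was present in 2 of 43 Mrgpra3 cells and in all 39 Sst/Nppb cells, and Osmr in 20 of 43 Mrgpra3 cells and in all 39 Sst/Nppb cells. At equal depth both genes therefore kept a lower detection in Mrgpra3 cells.

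Peptides divided the classes in both directions. Of 17 tested peptide, granin and processing genes, 9 were higher and 5 lower in Mrgpra3 cells, with a median of 0.74. All tested genes gave 12% higher and 8.52% lower. Calca (chr7:114631478-114636357, minus strand), the gene of the vasodilator peptide CGRP, had 844, 4651 and 5920 CPM (lowest, median and highest mouse) in Mrgpra3 cells, against 0, 67.4 and 456 CPM in Sst/Nppb cells. The groups did not overlap (6.55 ± 0.16, adjusted p = 1.54e-29). All 44 Mrgpra3 cells carried Calca and 15 of 45 Sst/Nppb cells did, the highest of these at 1823 CPM. Calcb, the other CGRP gene, followed it, at 198, 335 and 477 CPM in Mrgpra3 cells and 0, 16.5 and 40.6 CPM in Sst/Nppb cells (4.34 ± 0.23). Tac1, the gene of substance P and the other classical peptide of CGRP neurons, did not: 7 of 44 Mrgpra3 and 22 of 45 Sst/Nppb cells carried it, with medians over mice of 0 CPM in Mrgpra3 and 107.2 CPM in Sst/Nppb cells (-1.51 ± 0.39 in run 1 and -3.75 ± 0.77 over 6 mice). Calcb and Tac1 were named after their values were seen.

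Nts, the gene of neurotensin, was at 0 in 5 mice and at 2.55 CPM in Red in Mrgpra3 cells, and had 406, 638 and 695 CPM in Sst/Nppb cells (-6.43 ± 0.30, adjusted p = 2.73e-20). It was carried by 2 of 44 Mrgpra3 cells and 44 of 45 Sst/Nppb cells. Scg2, a granin and the precursor of secretoneurin, had 164, 497 and 1133 CPM in Mrgpra3 cells and 2706, 3496 and 8286 CPM in Sst/Nppb cells (-2.86 ± 0.12, adjusted p = 5.09e-22). Nmb, the gene of neuromedin B, a bombesin-like itch peptide, was higher in Mrgpra3 cells (1.71 ± 0.18, adjusted p = 3.67e-10), with medians over mice of 294 CPM in Mrgpra3 and 124.6 CPM in Sst/Nppb cells. Over 6 mice its difference was 1.06 (adjusted p = 0.0445). Its values overlapped between classes, it was higher in 5 of 6 mice, and 20.6% of its exon length overlaps another gene. Its adjusted p over 6 mice was 0.0445.

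**Figure D4:**
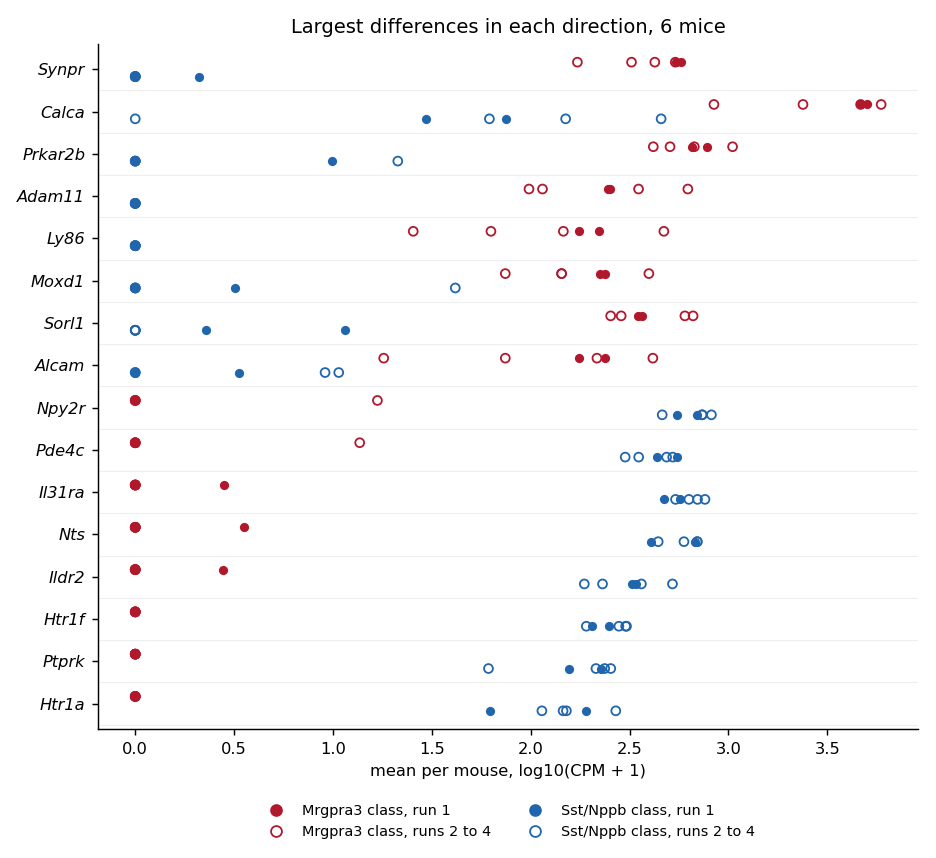
Mean CPM per mouse, as log10(CPM + 1), of the 8 genes with the largest differences in run 1 in each direction, among called genes that averaged 20 CPM or more and had 1 direction in every mouse, with predicted genes left out, in Mrgpra3 cells (red, upper) and Sst/Nppb cells (blue, lower), with filled points for run 1 and open points for runs 2 to 4. For all 16 genes the 6 Mrgpra3 averages and the 6 Sst/Nppb averages do not overlap, as for 381 of 8774 tested genes (4.34%). The choice of genes favours this outcome, so it carries no test. In every Mrgpra3 average 3 genes (Htr1f, Ptprk and Htr1a) lie at 0.

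Npy2r (chr3:82538383-82548084, minus strand), the Y2 receptor for neuropeptide Y, was among the 8 genes lowest in Mrgpra3 cells and had the lowest difference of all named genes. It was at 0 in 5 mice and at 15.8 CPM in Control6 in Mrgpra3 cells, from 1 of 44 cells, and had 461, 712 and 819 CPM in Sst/Nppb cells, where 44 of 45 cells carried it (-6.95 ± 0.29, adjusted p = 6.52e-22). Pde4c, a phosphodiesterase that degrades cyclic AMP, had 299.6, 461 and 547 CPM in Sst/Nppb cells. In Mrgpra3 cells it was at 0 in 5 mice and at 12.7 CPM in Control6, a value that is a fraction of a count. Ildr2, an immunoglobulin-like receptor, was at 0 in 5 mice in Mrgpra3 cells and had a median of 332 CPM in Sst/Nppb cells. Ptprk, a receptor tyrosine phosphatase, was found in 0 of 44 Mrgpra3 cells and in 42 of 45 Sst/Nppb cells, with a mouse median of 219.6 CPM. In the other kept cells the means of Npy2r, Pde4c, Ildr2 and Ptprk were 27.2, 32.6, 7.83 and 6.87 CPM. The set of Il31ra, Cysltr2, Htr1f, Npy2r and Nts was chosen after its values were seen. All 5 were detected together in 0 of 44 Mrgpra3 cells, in 37 of 45 Sst/Nppb cells and in 1 of 282 other kept cells. The choice favours this outcome, so it carries no test.

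The genes highest in Mrgpra3 cells were of several kinds. Synpr, a synaptic vesicle membrane protein, had 171, 481 and 578 CPM in Mrgpra3 cells and, in Sst/Nppb cells, was at 0 in 5 mice and 1.09 CPM in Blue, a value that is a fraction of a count. Pooled over cells it was at least 162-fold higher (6.67 ± 0.29, adjusted p = 1.93e-21). Prkar2b, a regulatory subunit of the cyclic AMP-dependent kinase, had 416, 662 and 1048 CPM in Mrgpra3 cells and at most 20.3 CPM in Sst/Nppb cells (6.43 ± 0.27). Adam11, an ADAM-family surface protein, and Ly86, a secreted partner of a Toll-like receptor homologue, were at 0 in all 45 Sst/Nppb cells, and at medians of 248 and 159.9 CPM over mice in Mrgpra3 cells. Sorl1, an endosomal sorting receptor, Moxd1, a monooxygenase-like protein, and Alcam, an adhesion molecule, had medians of 356, 183 and 195 CPM in Mrgpra3 cells and of 0, 0 and 1.17 CPM in Sst/Nppb cells. These genes were also found outside the 2 classes. Synpr was carried by 178 and Prkar2b by 249 of the 282 other kept cells.

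Receptors for neurotrophins and the GDNF family were on the Mrgpra3 side. Of 9 tested, 6 were higher and 0 lower in run 1, with a median of 1.12, beside 12% and 8.52% of all tested genes. Over 6 mice 5 of the 6 were also called higher, beside 3.24% higher and 2.63% lower among all genes. Gfra1 (chr19:58235604-58455909, minus strand), the GDNF co-receptor, had 294, 496 and 544 CPM in Mrgpra3 cells and 7.84, 23.2 and 40.6 CPM in Sst/Nppb cells (4.27 ± 0.22, adjusted p = 2.27e-19). All 44 Mrgpra3 cells carried it, and 15 of 45 Sst/Nppb cells did. Ret, the kinase it acts through, was higher in run 1, with medians of 573 CPM in Mrgpra3 and 288 CPM in Sst/Nppb cells (0.99 ± 0.14, adjusted p = 5.14e-07), and missed the threshold over 6 mice (adjusted p = 0.0605). Ngfr, the low-affinity neurotrophin receptor, had 181, 255 and 319 CPM in Mrgpra3 cells and 0, 8.91 and 20.3 CPM in Sst/Nppb cells (4.43 ± 0.29). Ncam1, an adhesion molecule that can serve as a GDNF receptor, had 241, 292 and 409.8 CPM in Mrgpra3 cells, against 0, 17.4 and 58.2 CPM in Sst/Nppb cells (4.29 ± 0.25).

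**Figure D5:**
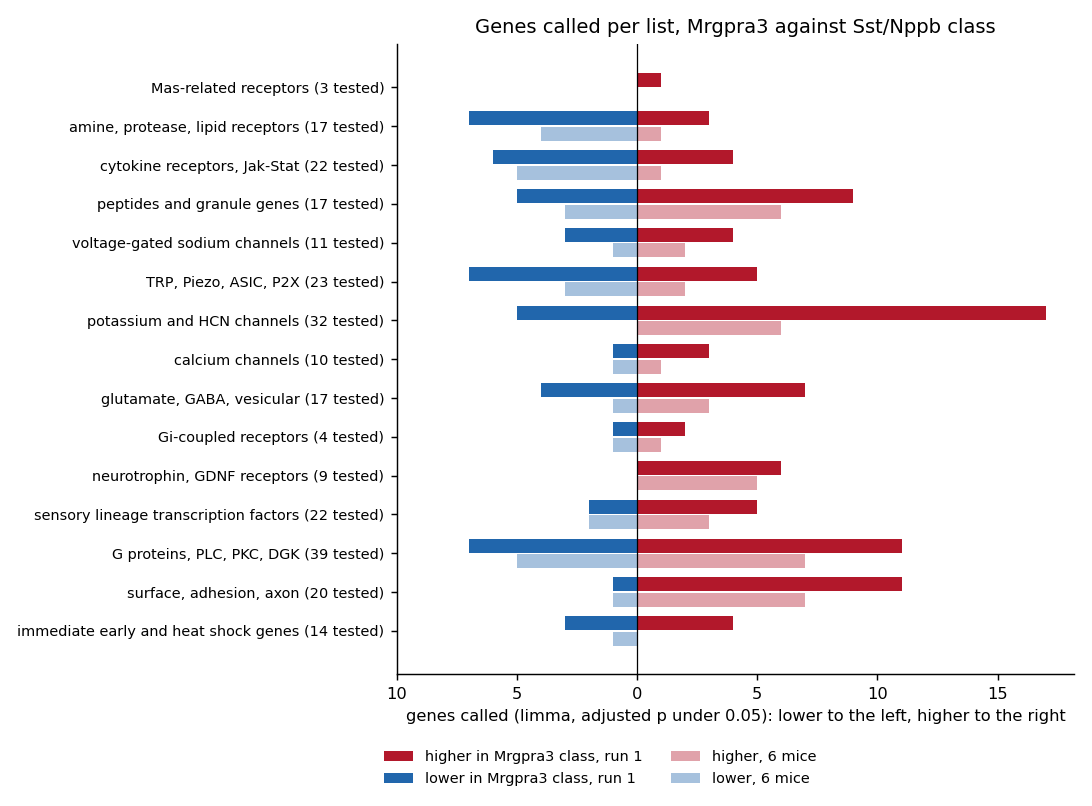
Number of genes called per gene list, to the right where higher and to the left where lower in Mrgpra3 than in Sst/Nppb cells, with full colour for the 2 mice of run 1 and pale colour for all 6 mice, and the number tested in run 1 in brackets. Potassium channel genes hold the most calls to the right (17 of 32 in run 1, 6 over 6 mice), and amine, protease and lipid receptors lean to the left (7 lower and 3 higher). Among all tested genes 12% were higher and 8.52% lower in run 1, and 3.24% and 2.63% over 6 mice.

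Genes of surface adhesion and axon growth included 11 of 20 higher and 1 lower in run 1 (median 1.39), beside 12% higher and 8.52% lower among all tested genes. Over 6 mice 7 were higher and 1 lower, beside 3.24% and 2.63% of all genes. Gap43, the growth-associated protein of axons, had 553, 617 and 711 CPM in Mrgpra3 cells and 8.12, 29.9 and 60.2 CPM in Sst/Nppb cells (5.01 ± 0.23, adjusted p = 1.4e-20). Nefl, the light neurofilament subunit, had 556, 910.0 and 1258 CPM in Mrgpra3 cells and 30.1, 93.8 and 223 CPM in Sst/Nppb cells (3.45 ± 0.16), with 32.8% of its exon length shared with another gene. Nrp1, the semaphorin and VEGF co-receptor, was at 0 in all 45 Sst/Nppb cells and had 296 to 356 CPM in the run 1 Mrgpra3 cells (6.04 ± 0.33). Nrp1 was at 0 in the 2 Mrgpra3 cells of Control1. Nrxn3, a presynaptic adhesion protein, was the lower one (-2.82 ± 0.24), with medians of 34.3 CPM in Mrgpra3 and 289.9 CPM in Sst/Nppb cells, and was named after its values were seen. All 4 of Calca, Gfra1, Gap43 and Rgs4, a set likewise chosen after values were seen, were found in 44 of 44 Mrgpra3 cells, 4 of 45 Sst/Nppb cells and 86 of 282 other kept cells.

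Sodium channels that set the firing of small-diameter neurons were shared with modest differences. Of 11 tested, 4 were higher and 3 lower, beside 12% higher and 8.52% lower among all tested genes. Scn11a, the persistent channel Nav1.9, had 945, 1239 and 1972 CPM in Mrgpra3 cells and 379, 608 and 1367 CPM in Sst/Nppb cells, was higher in 6 of 6 mice (0.99 ± 0.12, adjusted p = 1.74e-08), and overlapped between classes through mouse Control. Scn10a, which drives the label in these mice, had medians of 847 CPM in Mrgpra3 and 628 CPM in Sst/Nppb cells (0.43 ± 0.13, adjusted p = 0.011) and missed the threshold over 6 mice (adjusted p = 0.107). Scn3b, an auxiliary subunit, was higher (0.96 ± 0.17) and was also called over 6 mice (adjusted p = 0.0129). Both classes were sorted on a label that Scn10a drives.

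Potassium and HCN channel genes were tested for 32 members, of which 17 were higher and 5 lower in run 1, with a median of 0.79, beside 12% higher and 8.52% lower among all tested genes. Over 6 mice 6 were higher and 0 lower, beside 3.24% and 2.63% of all genes. Kcnmb1, a subunit of large-conductance calcium-activated channels, had 96.1, 307 and 754 CPM in Mrgpra3 cells and 0, 49.5 and 82.8 CPM in Sst/Nppb cells (2.30 ± 0.19, adjusted p = 9.58e-13). Dpp10 and Kcnip4, auxiliary subunits of A-type channels, were higher by 3.19 ± 0.27 and 1.495 ± 0.16. Kcnk18, the leak channel TRESK, named after its values were seen, had a value in 39 of 44 Mrgpra3 and in 1 of 45 Sst/Nppb cells (3.47 ± 0.45). Of 10 calcium channel genes 3 were higher and 1 lower, beside the same 12% and 8.52% of all tested genes. Cacna2d2 was the lower one (-0.64 ± 0.17, and -0.08 over 6 mice, where adjusted p = 0.898). The higher ones included Cacng2, stargazin, at 77.2 CPM in Mrgpra3 cells (median over mice) and at 0 in all 45 Sst/Nppb cells, and Cacnb4, a channel beta subunit, with a value in 23 of 44 Mrgpra3 cells and 1 of 45 Sst/Nppb cells. Cacnb4 differed by 3.49 in run 1 and by 1.85 over 6 mice, where it missed the threshold (adjusted p = 0.151).

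Of 23 sensory transduction channels 5 were higher and 7 lower in run 1, beside 12% higher and 8.52% lower among all tested genes. Over 6 mice 2 were higher and 3 lower, beside 3.24% and 2.63% of all genes. Their median was -0.26, and it turned to 0.12 in thinned cells and to 0.17 with averages on the log scale. Trpm6 and Trpm2, melastatin-type channels for divalent cations, were lower in Mrgpra3 cells without overlap between the 6 mice of each class. Trpm6 had medians of 0 CPM in Mrgpra3 and 97.1 CPM in Sst/Nppb cells (-3.75 ± 0.43) and Trpm2 of 11.4 CPM in Mrgpra3 and 91.5 CPM in Sst/Nppb cells (-2.69 ± 0.34). Tmem150c, or tentonin 3, linked to mechanically activated currents, was higher, at 85.6, 136 and 227 CPM in Mrgpra3 cells and 0, 6.44 and 16.1 CPM in Sst/Nppb cells (2.89 ± 0.30, adjusted p = 2.72e-10). Channels to which itch signals are commonly traced gave uneven values. Trpv1, the capsaicin receptor, was lower in run 1 (-0.64 ± 0.18, adjusted p = 0.00957) and not over 6 mice (-0.99 ± 0.52, adjusted p = 0.358). Trpa1, the irritant receptor, was higher in run 1 (1.26 ± 0.44, adjusted p = 0.0354), but the sign turned over 6 mice (-0.24 ± 0.83, adjusted p = 0.91), and 22 of 44 Mrgpra3 cells against 9 of 45 Sst/Nppb cells carried it. P2rx3, the ATP-gated channel, did not pass (0.07 ± 0.16, adjusted p = 0.824), nor did it over 6 mice (adjusted p = 0.436). Piezo2, the touch channel, was higher in run 1 (0.70 ± 0.24, adjusted p = 0.0333) and missed the threshold over 6 mice (0.76, adjusted p = 0.398), with a lower level in both classes (medians over mice 125.1 CPM in Mrgpra3 and 85.9 CPM in Sst/Nppb cells) than the mean of 759 CPM in the other kept cells.

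Among genes of transmission, 7 of 17 tested were higher and 4 lower in Mrgpra3 cells (median 0.39), beside 12% and 8.52% of all genes. Slc17a6, the vesicular glutamate transporter VGLUT2, had 226, 359 and 434 CPM in Mrgpra3 cells and 20.3, 83.5 and 129.9 CPM in Sst/Nppb cells (2.02 ± 0.19, adjusted p = 5.63e-11). It was carried by 44 of 44 Mrgpra3 cells and 33 of 45 Sst/Nppb cells. Chrna6, a nicotinic receptor subunit, was lower (-2.34 ± 0.24), with medians of 42.1 CPM in Mrgpra3 and 181 CPM in Sst/Nppb cells. Galr1, a galanin receptor, was at 24.5 to 66.4 CPM in Mrgpra3 cells and at 0 in 5 of 6 mice in Sst/Nppb cells (2.65 ± 0.49). Gpr35, an orphan Gi-coupled receptor, was higher in run 1 (1.14 ± 0.26, adjusted p = 0.000764) and did not pass over 6 mice (adjusted p = 0.791).

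Of 39 signalling genes 11 were higher and 7 lower in run 1, and 7 higher and 5 lower over 6 mice. Among all tested genes the shares were 12% and 8.52% in run 1, and 3.24% and 2.63% over 6 mice. Rgs4, which shortens signalling through Gi and Gq proteins, had 2405, 3645 and 3951 CPM in Mrgpra3 cells and 341, 444 and 714 CPM in Sst/Nppb cells (3.07 ± 0.11, adjusted p = 1.57e-23). Every cell of both classes carried it. Pde1c, a calcium-dependent phosphodiesterase, was higher (1.81 ± 0.17) and Gnb4, a G protein beta subunit, lower (-2.22 ± 0.23). Plcb3, the phospholipase through which itch receptors act, did not pass, with medians of 288 CPM in Mrgpra3 and 262 CPM in Sst/Nppb cells (-0.02 ± 0.16, adjusted p = 0.954). Among 22 lineage transcription factors, 5 were higher and 2 lower in run 1, beside 12% and 8.52% of all genes. Casz1, a zinc finger factor, Nfib, a nuclear factor I protein, and Etv5, an ETS factor, were higher by 4.91 ± 0.34, 3.60 ± 0.33 and 3.98 ± 0.40. The 2 lower were Runx1, a factor of non-peptidergic neurons, and Klf5, both named after their values were seen. Runx1 had medians of 67.2 CPM in Mrgpra3 and 312 CPM in Sst/Nppb cells (-1.85 ± 0.19) and Klf5 of 29.7 CPM in Mrgpra3 and 184 CPM in Sst/Nppb cells (-1.79 ± 0.21), and both were called over 6 mice.

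Markers of other cells and of handling moved with the classes in places. Of 14 immediate early and heat shock genes 3 were lower and 4 higher, beside 8.52% and 12% of all genes. Jun was lower in Mrgpra3 cells without overlap (medians 63.8 CPM in Mrgpra3 and 342 CPM in Sst/Nppb cells, -1.76 ± 0.18). Egr1, another immediate early gene, was lower (-1.45 ± 0.30) and Atf4, a stress-response factor, higher (0.94 ± 0.19) in run 1, and neither passed over 6 mice. Of 8 tested satellite glial genes 2, Apoe and Fabp7, were higher in run 1 and 0 over 6 mice. Among all genes 12% were higher in run 1 and 3.24% over 6 mice. Apoe had a value in 18 of 44 Mrgpra3 cells and 8 of 45 Sst/Nppb cells. Without cells above 1000 CPM of glial markers, 1732 genes were called, against 1776. All 4 tested markers of the Mrgprd class, Scn11a among them, were higher in Mrgpra3 cells in run 1, beside 12% of all genes. The 10 markers summed to 1473 to 3632 CPM in Mrgpra3 cells and to 668 to 1727 CPM in Sst/Nppb cells. Of those not tested in run 1, Lpar3 and Lpar5 were at 0 in both classes. Gfra2, Mrgprb5 and Agtr1a averaged 3.44, 0.81 and 17.35 CPM in Mrgpra3 cells and 1.79, 0 and 0.43 CPM in Sst/Nppb cells. Prkcq averaged 0.43 CPM in Mrgpra3 cells and, from 1 cell, 29.2 CPM in Sst/Nppb cells. The part of handling, and of Mrgprd-class transcripts, in the other differences was not tested. With each cell thinned to 10000 counts, 886 genes were called in run 1, below the 1776 at full depth.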

How the data were processed

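The authors deposited a signal per gene and cell in 4 run tables, mapped with STAR 2.7.3a to mm10, per the submitters' processing notes. Each value is the count of a gene times a factor of the cell that the sources used here do not state, and a median of 96.5% of low values came out as whole counts (tolerance 0.1 of a count). Cells with at least 500 genes were kept. Values were scaled per cell to CPM without Rn45s (7.11% of signal) and 26 entries that carried dates (0.154%). Mean CPM per mouse and class was tested as log2(CPM + 5) with limma 3.58.1 (R 4.3.3), mouse as a block and Benjamini-Hochberg adjustment, for genes averaging 10 CPM or more and mice with at least 3 cells per class. Mrgpra3, Sst, Nppb and Mrgprd were not tested. The block follows from both classes coming from the same animals. Deviations of the 2 classes from their means correlated by 0.006 to 0.159 per mouse over 8774 genes. edgeR 4.0.16 and DESeq2 1.42.0 on recovered counts were alternatives, and the test was tried on simulated data. Genes named were the 8 largest differences each way (averaging 20 CPM or more, 1 direction in every mouse, no gate, predicted, mitochondrial, ribosomal protein or haemoglobin genes), up to 3 called members of smallest p per list and itch genes listed in advance, less a few not reported here. Members and lists were chosen with earlier results of these data known. Positions and exon overlap came from GENCODE vM21. Labels list 400 cells, of which 6 were not analysed here, and no 2 columns were identical.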

Additional observations from a re-analysis of the deposited data

Results flagged for a closer look

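Values of 132 groups of 6 mouse averages were searched for a mouse that stood far from the other 5, and 28 were found. The cut-off flags about 1 in 20 groups by chance where values spread normally. A group at 0 in 5 mice and above 0 in 1 is always flagged, so that rate does not apply to it. In Mrgpra3 cells of Control, S1pr1 (156 CPM), Scn11a (1972), Scn10a (2432) and Cacna2d2 (610.1) stood high. In Mrgpra3 cells of Control1, Trpm6 (17.1 CPM), Trpa1 (265) and F2rl1 (96.05) stood high. In Mrgpra3 cells of Control6, Npy2r (15.8 CPM), Pde4c (12.7, a fraction of a count), Cysltr2 (15.8) and Egr1 (133) stood high and Gfra1 (294) low. In Mrgpra3 cells of run 1, Il31ra (1.81 CPM, from 2 cells) and Ildr2 (1.77, from 1 cell) in Blue and Nts (2.55, from 2 cells) in Red stood apart from 0 in the other mice.

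In Sst/Nppb cells, Scg2 (8286 CPM), Scn11a (1367) and Nefl (223) stood high in Control. Calca (456 CPM) and Cacnb4 (19.4) stood high in Control1, and Moxd1 (40.5), Etv5 (60.8) and Ptgdr (27.8) in Control2. Il13ra1 stood high in Control6 (109 CPM). Synpr (1.09 CPM) and Galr1 (2.20) in Blue, and Sorl1 (10.5) and Casz1 (7.58) in Red, stood apart from lower values of the other mice. Classes in Control6 and in Control2 held 2 cells each, and Mrgpra3 cells of Control and Control1 also 2, so 1 cell can set such an average.

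P2rx3 was 0.068 higher on the log2 scale in Mrgpra3 cells in run 1 (312 and 324 CPM in Blue and Red, against 303 and 303 CPM in Sst/Nppb cells) and lower in each of the 4 mice of runs 2 to 4. This difference between runs was not tested.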

How the results depend on the processing

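Chosen after seeing the data were the repeats of other settings over 6 mice; the 6-mouse fits with at least 1 or 2 cells per class, and with weights, were planned. The 1776 genes called in run 1 became 515 over 6 mice (minimum of 1 or 2 cells alike), 173 in the 4 mice of runs 2 to 4, 390 with DESeq2, 227 without the replicate block and 886 in thinned cells. Over 6 mice, 555 were called without cells under 10000 counts, 147 in thinned cells, 517 with median-ratio scaling, 766 with DESeq2, 1657 with edgeR and 1205 with each average weighted by its number of cells, against the 515. In run 1, the counts under the other planned settings that kept both mice stayed within 1.5 times, from 1235 (mean of at least 50 CPM) to 2432 (averages on the log scale). Without mouse Blue or Red, limma called 0 genes in run 1, with 316 and 312 genes at an unadjusted p under 0.05. That fit set 1 Mrgpra3 average against 3 Sst/Nppb averages without the block, and assumed that the lone average varies like the others. Leaving out each of 6 mice gave 316 without Blue, 318 without Red, 486 without Control, 408 without Control1, 327 without Control2 and 380 without Control6.

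The 227 genes called without the replicate block, 67.8% of them higher, came from a fit that also admits 2 Sst/Nppb averages of other mice. Over 6 mice, where dropping the block changed nothing else, 502 genes were called without it and 515 with it.

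Of 65 named genes, 61 were called in run 1, 48 over 6 mice and 36 both in run 1 and in the 4 other mice. Among all tested genes, 20.5% were called in run 1, 5.87% over 6 mice and 2% in the 4 other mice. Most of the 65 were named because run 1 called them, and the largest also for 1 direction in all 6 mice. The naming favours these counts, so they carry no test. Of the 61, 5 changed direction under another setting. The log2 difference of Cacna2d2 (-0.64 in run 1) came to 0.194 in the 4 mice and 0.009 over 6 mice with median-ratio scaling, and to 0.045 without Blue and 0.009 without Red. The log2 difference of Gpr35 came to -0.253 over 6 mice in thinned cells. The log2 difference of Trpv1 came to 0.053 without the replicate block. In the fits with 1 Mrgpra3 average and mixed runs, that of Trpv1 came to 0.626 without Blue and -0.060 without Red. The log2 difference of Trpa1 (1.26 in run 1) came to -0.237 over 6 mice, with or without the block, -0.246 with median-ratio scaling and -0.986 in the 4 mice. It was -0.002 without Blue and 0.591 without Red in the fits with 1 Mrgpra3 average and mixed runs. Over 6 mice it was -0.700 without Blue, -0.373 without Red, -0.816 without Control1 and -0.285 without Control6. The log2 difference of F2rl1 (-1.70 in run 1) came to 0.155 over 6 mice, with or without the block, 0.130 without shallow cells, 0.296 in thinned cells, 0.188 with median-ratio scaling and 1.084 in the 4 mice. Over 6 mice it was 0.629 without Blue, 0.425 without Red and 0.186 without Control, Control2 or Control6. The cause was not tested. With Mrgpra3 at 200 CPM or more, the class share in Blue was 7.94%, against 14.3%. Depth limits genes near 3 counts per class, 1.65 CPM in Mrgpra3 and 3.43 CPM in Sst/Nppb cells.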

Other observations

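The 3 cells of the Sst/Nppb class that passed its gate through Nppb alone were not alike in Sst. A cell of Blue and a cell of Control were at 0 for Sst, and a cell of Control6 held 79.4 CPM. All 3 carried Il31ra, at 479.5, 701 and 477 CPM, and Nts, at 239.8, 1402 and 159 CPM. The cell of Control held only 1412 counts and was at 0 for Jak1 and Npy2r, whereas the cells of Blue and Control6 held 12506 and 12520 counts, with Jak1 at 3197 and 6274 CPM.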
